A study of Mus musculus with 39 samples.

Results

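The S100 genes S100a8, S100a9, S100a4, S100a6, S100a10 and S100a11 were taken by name from the table of gene levels, which gave 6 of 53465 genes. All 6 passed the filter on low values, a TPM (a transcript share scaled to a fixed sum per library) of at least 1 in at least 3 libraries, as did 18466 genes in all. Each is described below in 13 groups of 3 libraries. APCmin/+ mice, which carry a mutant Apc allele and develop intestinal tumours, gave granulocytic (G), monocytic (M) and combined (G+M) sorts and unsorted single cells of the intestine, and G, M and G+M sorts of the spleen. The spleens of BALB/c mice with a labelled immune deficiency gave the same 3 sorts, and C57BL/6 mice labelled newborn to P7 gave G sorts, M sorts and unsorted single cells of the bone marrow. The sorts are labelled as myeloid-derived suppressor cells, which are immature and dampen T cell responses. Not given in the sources used here are the surface markers of the sorts, the allele behind the immune deficiency, the background strain of the APCmin/+ mice and the stretch of intestine. Nothing in the labels ties the 3 libraries of a group to separate animals, so p-values measure only the spread between libraries. That spread was estimated for each gene over all 13 groups together, although for the 6 genes it differed between groups. A test can thus read as too strong for groups that spread widely and as too weak for tight ones.

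S100 proteins are small dimers with paired EF-hand loops that bind calcium and then expose a surface for a partner protein. S100A8 and S100A9 form calprotectin, a heterodimer that fills the cytosol of neutrophils, binds zinc and manganese, and acts outside the cell as an alarmin through Toll-like receptor 4 and the receptor RAGE. S100A4 binds non-muscle myosin and is known from motile monocytes and fibroblasts, S100A6 binds calcyclin-binding protein, and S100A11 binds annexin A1. S100A10 has lost calcium binding and joins annexin A2 at the membrane.

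Every library summed to 1000000 TPM, so read depth is unknown and no counting error is given. Replicate libraries correlated at Pearson r between 0.964 and 0.993 across genes. The summed TPM of 12 neutrophil markers averaged 40873 ± 1448 in marrow G sorts and 43857 ± 3133 in marrow M sorts (SD, n = 3 each), so the libraries labelled M in marrow held neutrophil granule transcripts at the level of the G sort. The 11 monocyte markers summed to 232 ± 8.48 TPM in marrow G sorts and 3103 ± 118 TPM in marrow M sorts. In the intestine the 12 neutrophil markers summed to between 20.8 and 250 TPM in G sorts and between 26.3 and 43.9 TPM in M sorts, with Ly6g at means of 1.97 TPM in G sorts and 1.51 TPM in M sorts. All 12 were low there, with means in G sorts from 0.447 TPM for Cebpe to 34.6 TPM for Ngp, which averaged 6241 TPM in APCmin/+ spleen G sorts. The 12 epithelial markers, led by Fabp2 and Krt8 in G sorts, summed to 14362 ± 874 TPM in intestinal G sorts and 13031 ± 338 TPM in intestinal M sorts, against 12060 ± 1839 TPM in unsorted intestinal cells. In every spleen and marrow library they summed to 102 TPM or less. Intestinal sorts go against their labels as myeloid cells, and they are called here by the name of their sort. The 11 B and plasma cell markers summed to a mean of 8078 TPM in intestinal G sorts and 112367 TPM in intestinal M sorts, and to means between 37154 and 60597 TPM in spleen sorts. Over the 13 groups the T and NK cell markers summed to means between 14.5 and 287.5 TPM, and the stromal markers to means between 27.6 and 803.8 TPM, highest in unsorted marrow.

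All 6 genes lie on chromosome 3. In GENCODE vM21 coordinates of GRCm38 (mm10, the build named in the submitters' processing notes), S100a4 spans chr3:90603771-90606045, S100a6 chr3:90612882-90624181 and S100a8 chr3:90668978-90670035, all on the plus strand. S100a9 follows at chr3:90692632-90695721 on the minus strand, so that S100a8 and S100a9 face each other with their 3′ ends. S100a11 at chr3:93520488-93526287 and S100a10 at chr3:93555080-93564643 lie apart from these, both on the plus strand. Of the 14 S100 genes on the chromosome, S100a8 and S100a9 are neighbours in order, as are S100a11 and S100a10. The provisional gene Gm42674 shares 302 exon bases with S100a4 on the same strand and was listed between 0 and 0.61 TPM. A pseudogene, S100a11-ps, was listed between 0 and 0.23 TPM. The lowest library values of S100a4 and S100a11 were 1.21 and 207 TPM, both in intestinal G sorts. How reads were shared between these entries was not tested.

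Promoters of 5 of the 6 genes were found in the RefSeq table for GRCm38.p6, each running from 250 bases before the RefSeq start to 50 after it. Those of S100a8 and S100a9, which had near-identical profiles, and of S100a4, which differed most between sorts, are shown on the strand of the gene.
S100a8: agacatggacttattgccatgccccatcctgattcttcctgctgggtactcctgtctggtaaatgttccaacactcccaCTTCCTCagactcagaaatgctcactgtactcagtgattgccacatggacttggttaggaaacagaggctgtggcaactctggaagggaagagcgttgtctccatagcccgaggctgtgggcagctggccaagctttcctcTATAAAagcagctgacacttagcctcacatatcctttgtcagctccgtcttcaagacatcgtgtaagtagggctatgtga
S100a9: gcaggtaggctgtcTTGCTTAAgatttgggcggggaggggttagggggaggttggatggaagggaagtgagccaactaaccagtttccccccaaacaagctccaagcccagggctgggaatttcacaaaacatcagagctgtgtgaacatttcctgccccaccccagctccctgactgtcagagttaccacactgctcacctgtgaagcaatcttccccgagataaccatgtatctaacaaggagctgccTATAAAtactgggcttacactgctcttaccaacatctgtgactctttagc
S100a4: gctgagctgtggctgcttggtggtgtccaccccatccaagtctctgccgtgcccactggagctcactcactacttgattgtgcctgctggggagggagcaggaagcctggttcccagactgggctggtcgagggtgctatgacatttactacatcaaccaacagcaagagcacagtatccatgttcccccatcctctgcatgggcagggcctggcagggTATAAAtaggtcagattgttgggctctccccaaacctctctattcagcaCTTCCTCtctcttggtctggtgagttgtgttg
They cover chr3:90668821-90669120, chr3:90695672-90695971 and chr3:90603520-90603819. Capitals mark matches to 4 motifs searched on both strands. The motif TATAAA is the core of the TATA box. C/EBP factors are known to bind letters such as TTGCNNAA in myeloid genes. For the myeloid factor PU.1 the letters searched were GAGGAAG, and both matches shown are on the opposite strand. The motif searched for the factor AP-1 was TGANTCA, and no 2 of the matches shown overlap. S100a8 had TATAAA 30 bases before its start and a PU.1 match 171 bases before it. S100a9 had a C/EBP match 236 bases before its start and TATAAA at the start itself, and S100a4 had TATAAA 31 bases before its start with a PU.1 match 18 bases after it. TATAAA was present in 13.6% of 32851 promoters of that length, the PU.1 motif in 13.6%, the C/EBP motif in 10.8% and the AP-1 motif in 7.81%. S100a11 had AP-1 matches 136 and 38 bases before its start and none of the other motifs, and S100a6 had no match. No motif was shared by S100a8 and S100a9 other than TATAAA, and a match is a run of letters, not a site shown to be bound.

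S100a8 and S100a9 had the highest levels of the 6 in marrow and spleen and the widest range. In the intestine S100a8 was at 11.5, 197 and 10.96 TPM in G sorts, 10.1, 3.48 and 4.69 TPM in M sorts, 13.6, 45.1 and 6.88 TPM in G+M sorts, and 11.5, 20.2 and 50.1 TPM in unsorted cells. The G sort library 2 stood far above the other intestinal libraries, and no intestinal library reached the lowest spleen or marrow value. In APCmin/+ spleen it stood at 7221, 38461 and 16619 TPM in G sorts, 9299.8, 32699.7 and 25437 TPM in M sorts, and 9406, 20526 and 12210.25 TPM in G+M sorts. Replicate 1 was the lowest and replicate 2 the highest in all 3 of these APCmin/+ sorts, and the 3 sorts overlapped. In BALB/c spleen the values were 5585, 6510.4 and 3875 TPM in G sorts, 1309.7, 1754 and 1339 TPM in M sorts, and 3772, 4552 and 5632 TPM in G+M sorts. Every G value there lay above every M value. In marrow it stood at 36704, 32197 and 32581 TPM in G sorts, 37977, 31583 and 31850.35 TPM in M sorts, and 9706, 10863 and 8258 TPM in unsorted cells. The marrow sorts overlapped each other and lay above unsorted marrow. Ordered by mean, marrow G sorts (33827 ± 2499 TPM) and marrow M sorts (33803 ± 3617 TPM) led, and each group overlapped the next down to unsorted marrow (9609 ± 1305 TPM). A gap separated unsorted marrow from BALB/c G and G+M sorts, another separated those from BALB/c M sorts (1468 ± 249 TPM), and a further one set the intestinal groups apart.

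S100a9 followed the same order of 13 groups at higher levels. Intestinal values ran between 4.41 and 76.7 TPM outside G sort library 2, which stood at 289 TPM. In APCmin/+ spleen it averaged 31861 ± 23862 TPM in G sorts and 34180.4 ± 18053 TPM in M sorts (SD, n = 3 each), with replicate 1 lowest and replicate 2 highest in both. In BALB/c spleen it stood at 11512.5, 11769 and 7944 TPM in G sorts and at 2174, 2717 and 2172 TPM in M sorts. In marrow it stood at 59079, 53441 and 57551 TPM in G sorts, 56369, 47698 and 49570.24 TPM in M sorts, and 15330.1, 17298 and 13379 TPM in unsorted cells. The ratio of the highest to the lowest group mean was 5566 for S100a8 and 6474 for S100a9, against 436 for S100a4, 13.8 for S100a11, 10.2 for S100a10 and 3.94 for S100a6. Together S100a8 and S100a9 made up at most 0.0486% of all TPM in any intestinal library and 1.82, 9.63 and 4.33% in the 3 APCmin/+ spleen G sorts. Their share was 1.57 ± 0.344% in BALB/c spleen G sorts and 0.382 ± 0.0562% in BALB/c spleen M sorts. In marrow it was 9.05 ± 0.508% in G sorts and 8.502 ± 0.815% in M sorts.

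**Figure D1:**
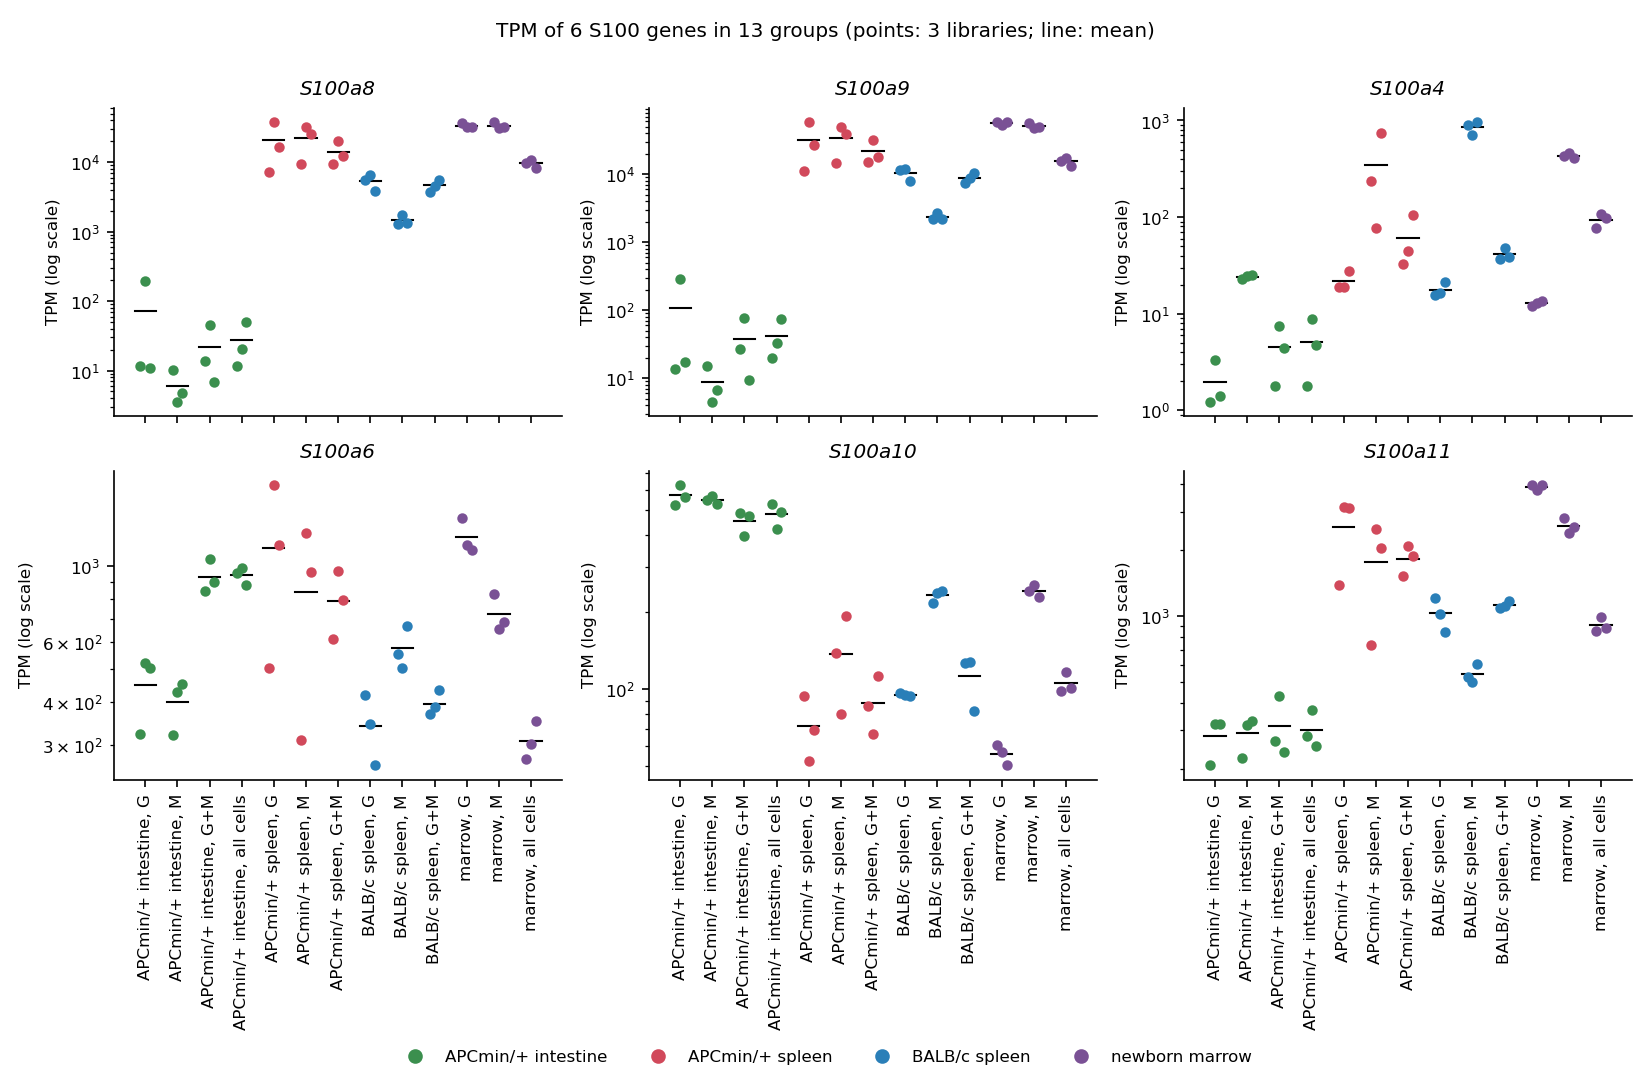
TPM of the 6 S100 genes on a log scale in each of 13 groups, by site from intestine to marrow; points are the 3 libraries and the line is their mean. S100a8 and S100a9 stand between 3.48 and 289 TPM in intestinal libraries and at 1309.7 TPM or more elsewhere, S100a4 is higher in each M sort than in the G sort of its site, and S100a10 is highest in the intestine.

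Differences were tested on log2(TPM + 1) with limma, and a call in either direction needed a fold change of at least 2 with an adjusted p below 0.05. Between G and M sorts 2 of the 6 genes were called in marrow (10.2% of all tested genes), 3 in BALB/c spleen (4.94%), 1 in APCmin/+ spleen (3.22%) and 1 in the intestine (2.83%). Intestine against APCmin/+ spleen gave 6 calls for G sorts (40.8% of all genes), 5 for M sorts (39.9%) and 5 for G+M sorts (39.3%). APCmin/+ against BALB/c spleen gave 2 calls for G sorts (8.87%), 4 for M sorts (11.5%) and none for G+M sorts (9.00%), where limma left 3 of 6 at an unadjusted p under 0.05. APCmin/+ spleen against marrow gave 0 calls for G sorts (18.2% of all genes) and 0 for M sorts (15.7%), where limma left 1 and 2 genes at an unadjusted p under 0.05. Of the 6, 5 were called between G sorts and unsorted marrow (19.1%) and 5 between M sorts and unsorted marrow (19.1%). In the intestine 1 was called between G sorts and unsorted cells (5.38%), 3 between M sorts and unsorted cells (4.42%) and 0 between G+M sorts and unsorted cells (3.24%), where no unadjusted p was under 0.05. S100a4 was called in 11 of 20 comparisons, S100a6, S100a9 and S100a11 in 7 each, and S100a8 and S100a10 in 6 each. The median log2 fold change of the 6 between G and M sorts was 0.07 in BALB/c spleen (all genes -0.04), -0.24 in APCmin/+ spleen (all genes -0.08), 0.10 in the intestine (all genes 0.14) and 0.08 in marrow (all genes 0.04).

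The alarmin pair was called lower in the intestine than in spleen in all 3 sorts. Intestinal G sorts held S100a8 at 73.1 ± 107 TPM, against 20767 ± 16028 TPM in APCmin/+ spleen G sorts, a log2 fold change of -9.07 ± 0.73 (SE, adjusted p = 2.64e-12). S100a9 fell by 9.23 ± 0.75 on the log2 scale in the same comparison (adjusted p = 3.33e-12). Between M sorts of the 2 tissues S100a8 fell by 11.56 and S100a9 by 11.75, and between G+M sorts they fell by 9.58 and 9.49, with no overlap between tissues in any of the 3. The summed neutrophil markers moved the same way, at 103 ± 128 TPM in intestinal G sorts against 20772 ± 15439 TPM in spleen G sorts, while the epithelial sum went to 14362 TPM in intestinal G sorts against 49.6 TPM in spleen G sorts. In bulk samples fewer cells of a type and less RNA per cell cannot be told apart, and the part of cell makeup in these differences was not tested.

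Between the APCmin/+ and BALB/c spleens the pair was called in M sorts. S100a8 stood 3.76 ± 0.73 higher on the log2 scale in APCmin/+ than in BALB/c M sorts (adjusted p = 0.000174) and S100a9 3.69 ± 0.75 higher (adjusted p = 0.000297), with all 3 APCmin/+ libraries above all 3 BALB/c libraries. In G sorts the log2 fold changes were 1.68 for S100a8 (adjusted p = 0.0811) and 1.33 for S100a9 (adjusted p = 0.187), neither called. Without APCmin/+ G replicate 1, S100a8 reached 2.28 with an adjusted p of 0.0238. Without APCmin/+ G replicate 2 the values were 1.07 for S100a8 (adjusted p = 0.401) and 0.74 for S100a9 (0.616). The summed neutrophil markers stood at 13339, 36734 and 31892 TPM in APCmin/+ M sorts, against 2801, 3205 and 2108 TPM in BALB/c M sorts, and were lowest in replicate 1 as S100a8 was. Their part in the difference between the spleens was not tested. Strain, Apc genotype and immune deficiency cannot be told apart between these spleens.

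Between G and M sorts S100a9 was called at 1 of 4 sites and S100a8 at none. In BALB/c spleen S100a9 was higher in G sorts by 2.13 ± 0.75 on the log2 scale (adjusted p = 0.0473), and S100a8 differed by 1.84 ± 0.73 (adjusted p = 0.0833), which missed the threshold. The S100a9 call ended when any 1 of the 6 libraries was left out (adjusted p between 0.0693 and 0.124), with a pseudocount of 0.1 (0.0576), with no filter (0.0856) and with the replicate number as a block (0.0588), while S100a8 was called in a fit of these groups alone (0.00679). In the intestine the log2 fold changes of G over M sorts were 2.24 for S100a8 (adjusted p = 0.0651) and 2.30 for S100a9 (0.0655). Equally numbered libraries of those sorts were taken as paired from their values, as no label gives the meaning of a number. With the replicate block both passed at adjusted p-values of 0.0411 and 0.0440. They also passed without G replicate 1 (2.89 and 3.07) or G replicate 3 (2.92 and 2.90), which leaves the high library 2 with 1 other. Without that library, G replicate 2, the values were 0.90 for S100a8 (adjusted p = 0.57) and 0.92 for S100a9 (0.572). In marrow and APCmin/+ spleen the G and M libraries overlapped for both genes. The difference between the intestinal and the APCmin/+ splenic contrast was 2.49 ± 1.04 for S100a8 (adjusted p = 0.0768) and 2.53 ± 1.06 for S100a9 (0.08). None of the 6 genes was called in that interaction in limma (8.52% of all genes), with 3 at an unadjusted p under 0.05. With the replicate block 2 were called, S100a8 at an adjusted p of 0.0409 and S100a9 at 0.0461. Equally numbered intestinal and spleen libraries hardly deviated together, however (r of 0.012 to 0.107 for G and M sorts). S100a8 and S100a9 also passed without each of 4 libraries in turn (intestinal G replicate 1 or 3, spleen G replicate 2, spleen M replicate 1). Without intestinal G replicate 2 the differences were 1.15 for S100a8 (adjusted p = 0.357) and 1.15 for S100a9 (0.369).

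Against unsorted marrow S100a8 was called in both sorts and S100a9 in G sorts. S100a8 was higher by 1.82 ± 0.73 on the log2 scale in G sorts (adjusted p = 0.0385) and by 1.82 ± 0.73 in M sorts (0.0389), with all 3 sorted libraries above all 3 unsorted ones. The 8 erythroid markers, led by haemoglobin genes such as Hbb-bs, moved the other way. They summed to 2091 ± 471 TPM in G sorts and 890 ± 219 TPM in M sorts, against 80702 ± 23804 TPM in unsorted marrow. All 8 were called lower in each sort (19.1% of all genes called either way in each). Their part in the differences from unsorted marrow, of these and of the other S100 genes, was not tested. S100a9 was higher by 1.89 ± 0.75 in G sorts (0.0364) and differed by 1.74 ± 0.75 in M sorts (0.0543). In fits of the groups compared alone the S100a9 call in G sorts was lost (0.0602), whereas S100a9 was called in M sorts (0.0402). The calls of S100a8 ended without any 1 of the 6 libraries (adjusted p between 0.061 and 0.0958 over both comparisons) and with no filter (0.0701 and 0.0719), and that of S100a9 likewise (0.0588 to 0.0875, and 0.0667). In the intestine S100a9 was lower in M sorts than in unsorted cells by a log2 fold change of -2.10 ± 0.75 (adjusted p = 0.0361). That call ended without M replicate 2 (-1.75) or 3 (-2.00), without unsorted replicate 2 (-2.18) or 3 (-1.61), after rescaling (-1.82, adjusted p = 0.124), with no filter (0.0606) and in a fit of these 2 groups alone (0.092). The erythroid markers summed to 24.7 ± 11.1 TPM in intestinal M sorts and 1229 ± 730 TPM in unsorted intestinal cells, and their part was not tested.

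The ratio of S100a8 to S100a9 TPM was narrow, although the levels ranged widely. It averaged 0.714 ± 0.109 in intestinal G sorts, 0.648 ± 0.0225 in APCmin/+ spleen G sorts, 0.509 ± 0.0385 in BALB/c spleen G sorts and 0.597 ± 0.028 in marrow G sorts. In M sorts it averaged 0.719 ± 0.065 in the intestine, 0.655 ± 0.00832 in APCmin/+ spleen, 0.622 ± 0.0221 in BALB/c spleen and 0.66 ± 0.0158 in marrow. The BALB/c G sorts (0.485 to 0.553) and G+M sorts (0.502 to 0.538) lay below every other spleen or marrow library, the lowest of which stood at 0.566. Intestinal ratios, between 0.50 and 0.836, rest on low levels of both genes. These ratios are a description and were not tested.

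**Figure D2:**
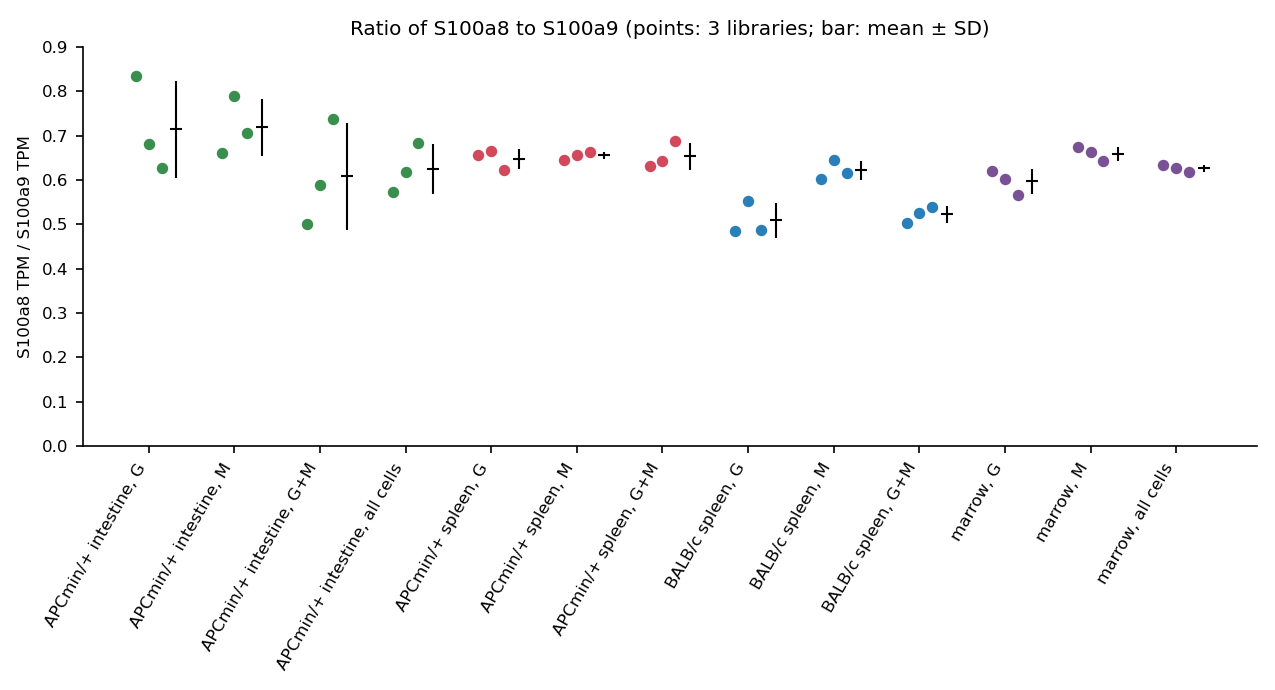
Ratio of S100a8 TPM to S100a9 TPM in each library (points) of the 13 groups, with the mean ± SD beside them. BALB/c spleen G and G+M sorts stand between 0.485 and 0.553, below the APCmin/+ spleen and marrow libraries, while intestinal libraries spread between 0.50 and 0.836.

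S100a4 separated M from G sorts at all 4 sites. In the intestine it stood at 1.21, 3.29 and 1.41 TPM in G sorts, against 23.1, 24.6 and 25.1 TPM in M sorts. In APCmin/+ spleen the values were 19.1, 18.9 and 27.9 TPM in G sorts, against 236, 77.1 and 734 TPM in M sorts. The M sort library 2 of APCmin/+ spleen was the lowest of the splenic M libraries, but no G library of that spleen reached it. In BALB/c spleen S100a4 stood at 15.7, 16.6 and 21.1 TPM in G sorts, against 887, 715 and 972 TPM in M sorts. In marrow it stood at 12.2, 12.9 and 13.4 TPM in G sorts, against 428, 462 and 408 TPM in M sorts. G and M libraries overlapped at none of the 4 sites. The log2 fold changes of G over M sorts were -3.15 ± 0.50 in the intestine (adjusted p = 0.000121), -3.40 ± 0.50 in APCmin/+ spleen (2.99e-05), -5.51 ± 0.50 in BALB/c spleen (3.07e-09) and -4.97 ± 0.50 in marrow (4.64e-09). All 4 calls held without each library in turn, and that of APCmin/+ spleen was lost in a fit of its 6 libraries alone (adjusted p = 0.271). G+M sorts stood nearer to G than to M sorts, at 32.7, 45.0 and 104 TPM in APCmin/+ spleen and at 36.5, 48.4 and 38.5 TPM in BALB/c spleen. Against unsorted marrow, at 77.7, 107 and 97.4 TPM, S100a4 was lower in G sorts (-2.77 ± 0.50, adjusted p = 2.80e-05) and higher in M sorts (2.20 ± 0.50, 0.000476). In the intestine it was higher in M sorts than in unsorted cells by 2.23 ± 0.50 (adjusted p = 0.00169), which was lost in a fit of these 2 groups alone (0.0591).

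**Figure D3:**
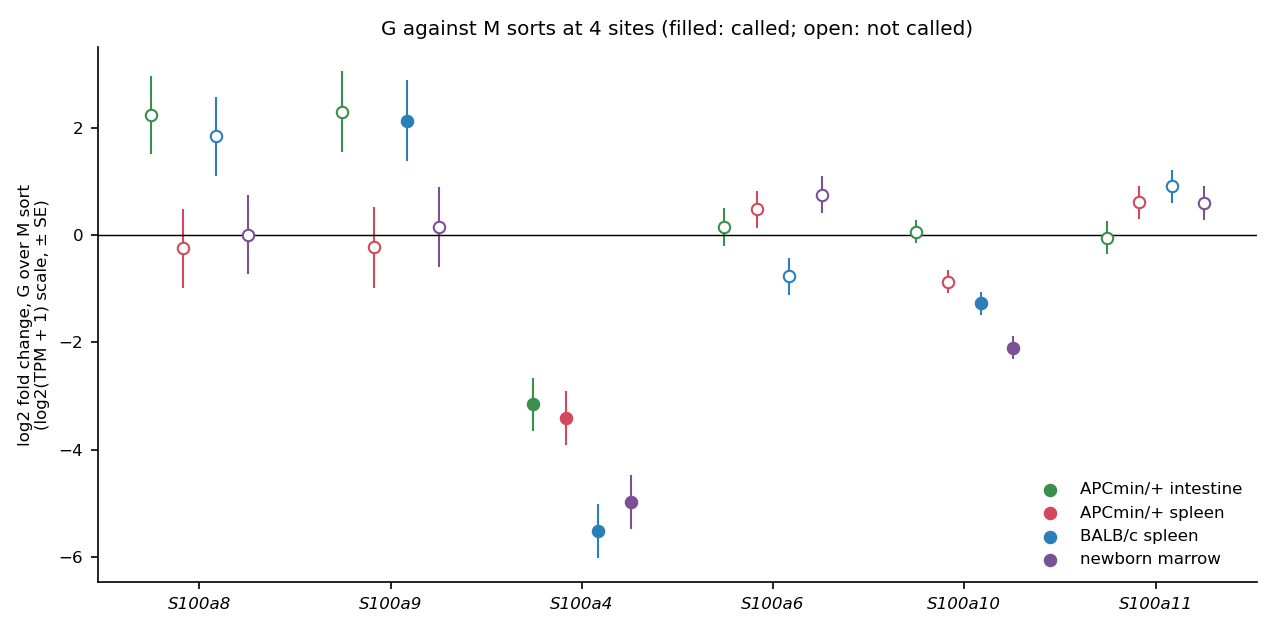
Log2 fold change (log2(TPM + 1) scale) of G over M sorts with its SE for the 6 genes at 4 sites; filled points passed the threshold and open points did not. S100a4 is below 0 and filled at all 4 sites, between -5.51 and -3.15, and S100a10 is filled in BALB/c spleen and marrow.

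S100a4 was lower in the intestine than in APCmin/+ spleen in each sort, by log2 fold changes of -2.99 in G sorts, -3.24 in M sorts and -3.44 in G+M sorts, with an adjusted p of 4.1e-06 or less and no overlap. Between spleens S100a4 was lower in APCmin/+ than in BALB/c M sorts (-1.84 ± 0.50, adjusted p = 0.00436), although the groups overlapped. That call ended without APCmin/+ M replicate 2 (-1.03, adjusted p = 0.0999) and in a fit of these groups alone (0.174). The difference of the G over M contrast between the 2 spleens was 2.11 ± 0.71 (adjusted p = 0.146), with 2.92 without APCmin/+ M replicate 3 (0.0046) and 1.30 without APCmin/+ M replicate 2 (0.453). None of the 6 genes was called in that interaction in limma (1.08% of all genes), with 3 at an unadjusted p under 0.05. The summed monocyte markers stood at 2558, 795 and 3501 TPM in the APCmin/+ M sorts, in the same order of libraries as S100a4, and their part was not tested. Between APCmin/+ spleen and marrow M sorts the log2 fold change of S100a4 was -0.86 (adjusted p = 0.173), with -1.67 without APCmin/+ M replicate 3 (0.0038) and -0.05 without APCmin/+ M replicate 2 (0.968).

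S100a10, the annexin A2 partner, was the only one of the 6 called higher in the intestine than in spleen, and was so for G, M and G+M sorts. It stood at 523, 628 and 562 TPM in intestinal G sorts and 546, 568 and 527 TPM in intestinal M sorts. In APCmin/+ spleen it stood at 94.2, 52.5 and 69.1 TPM in G sorts and 138, 80.3 and 193 TPM in M sorts. Every intestinal library lay above every spleen and marrow library, and unsorted intestinal cells were at 530, 424 and 490 TPM, within the range of the sorts. Intestine over spleen gave log2 fold changes of 3.01 ± 0.21 in G sorts (adjusted p = 1.43e-13), 2.08 ± 0.21 in M sorts (6.97e-10) and 2.37 ± 0.21 in G+M sorts (3.41e-11). The epithelial marker sum moved with it, as given above, and its part was not tested. In BALB/c spleen S100a10 stood at 96.7, 95.3 and 94.2 TPM in G sorts, against 218, 237 and 242 TPM in M sorts, a log2 fold change of -1.27 ± 0.21 (adjusted p = 5.83e-05). In marrow the values were 60.7, 56.8 and 50.5 TPM in G sorts, against 241, 255 and 229 TPM in M sorts (-2.09 ± 0.21, adjusted p = 6.4e-09). Neither comparison overlapped. In APCmin/+ spleen the fold change, -0.87 ± 0.21 (adjusted p = 0.00448), stayed under 2-fold, and it passed without G replicate 1 (-1.09) or M replicate 2 (-1.21). M sorts of APCmin/+ spleen were lower than those of BALB/c spleen by a log2 difference of -0.84 (adjusted p = 0.00248) and than those of marrow by -0.90 (0.00108), both under 2-fold and both past it without APCmin/+ M replicate 3 (-1.13 and -1.19). Without APCmin/+ M replicate 2 they were -0.50 (adjusted p = 0.0606) and -0.56 (0.0224). Against unsorted marrow S100a10 was higher in M sorts by 1.19 ± 0.21 (adjusted p = 2.84e-05) and differed by -0.90 in G sorts (0.000737), under 2-fold. The intestinal and splenic G over M contrasts differed by 0.93 ± 0.30 (adjusted p = 0.0243), also under 2-fold, and past it without APCmin/+ spleen G replicate 1 (1.14) or M replicate 2 (1.27).

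S100a11 had its highest means in the marrow sorts, and its groups fell in a similar order to those of S100a8. Unsorted marrow differed, with a mean of 909 TPM below those of BALB/c G sorts (1027 TPM) and G+M sorts (1121 TPM). For S100a8 its mean lay above both. All 12 intestinal libraries stood between 207 and 431 TPM, below every other library, with the 4 groups overlapping. In APCmin/+ spleen S100a11 averaged 2545 ± 1007 TPM in G sorts and 1764 ± 918 TPM in M sorts, and in BALB/c spleen 1027 ± 182 TPM in G sorts and 544 ± 55.1 TPM in M sorts (SD, n = 3 each). In marrow it stood at 3964, 3759 and 3979 TPM in G sorts, 2805, 2399 and 2559.7 TPM in M sorts, and 854, 989.9 and 883 TPM in unsorted cells. Every marrow G value lay above every marrow M value. S100a11 was lower in the intestine than in spleen by log2 fold changes of -3.09 ± 0.31 in G sorts (adjusted p = 3.04e-10), -2.44 in M sorts (4.15e-08) and -2.58 in G+M sorts (1.32e-08). It was higher in APCmin/+ than in BALB/c spleen, by 1.23 ± 0.31 in G sorts (0.00319) and 1.52 ± 0.31 in M sorts (0.000288), and both calls ended in fits of these groups alone (0.0956 and 0.0954). Against unsorted marrow it was higher by 2.10 ± 0.31 in G sorts (1.48e-06) and 1.51 ± 0.31 in M sorts (0.000154). The G over M difference was not called at any site. It came nearest in BALB/c spleen at 0.91 ± 0.31 (adjusted p = 0.0399), under 2-fold, and passed there after rescaling (1.07) or without G replicate 3 (1.04). In APCmin/+ spleen it was 0.61 (adjusted p = 0.169), with 1.00 without G replicate 1 (0.0176) and 0.07 without M replicate 1 (0.94). M sorts of APCmin/+ spleen and marrow differed by -0.73 (adjusted p = 0.0581), by -1.07 without APCmin/+ M replicate 2 (0.00817) and by -0.19 without APCmin/+ M replicate 1 (0.655).

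S100a6 varied least. Its group means ran between 308 TPM in unsorted marrow and 1215 TPM in marrow G sorts, and each of the 12 pairs of neighbours in that order overlapped. In the intestine S100a6 stood at 322, 521 and 503 TPM in G sorts, 320, 429 and 451 TPM in M sorts, 844, 1049.9 and 896 TPM in G+M sorts, and 951, 987 and 880.1 TPM in unsorted cells. Both single sorts lay below every G+M and unsorted library, so the G+M sorts lay above both of the sorts they are labelled to combine. The log2 fold changes against unsorted cells were -1.09 ± 0.35 in G sorts (adjusted p = 0.0312) and -1.24 ± 0.35 in M sorts (0.00948). The first was lost after rescaling (-0.97), in a fit of these groups alone (0.0855), and without G replicate 1 (-0.87) or any 1 of the unsorted libraries (-1.14 to -1.06). The second was lost after rescaling (-0.92) and without M replicate 1 (-1.09, adjusted p = 0.0677). In APCmin/+ spleen G sorts it stood at 504, 1727 and 1153 TPM, against 418, 345 and 261 TPM in BALB/c spleen G sorts. That difference, 1.58 ± 0.35 (adjusted p = 0.000957), was called with no overlap, and was lost in a fit of these groups alone (0.0929). In G+M sorts APCmin/+ and BALB/c spleen differed by 0.98 ± 0.35 (adjusted p = 0.0362), under 2-fold. That difference passed after rescaling (1.11) or without APCmin/+ G+M replicate 1 (1.15). In marrow S100a6 stood at 1384, 1149 and 1110.3 TPM in G sorts, 826, 654 and 685 TPM in M sorts, and 272, 301 and 352 TPM in unsorted cells. Against unsorted marrow it was higher by 1.98 ± 0.35 in G sorts (adjusted p = 2.02e-05) and by 1.23 ± 0.35 in M sorts (0.00396), with no overlap.

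Intestinal G sorts were also below APCmin/+ spleen G sorts in S100a6 (-1.19 ± 0.35, adjusted p = 0.0033), although these groups overlapped. The call ended after rescaling (-0.94), in a fit of these groups alone (0.0759), and without intestinal G replicate 1 (-0.97) or spleen G replicate 2 (-0.80). In M sorts the value was -0.86 (adjusted p = 0.0282), under 2-fold, with -1.47 without spleen M replicate 1 and -0.46 without spleen M replicate 2 (0.255). After rescaling it was -0.21 (adjusted p = 0.648). S100a6 was the 1 gene of the 6 called in the difference between the BALB/c spleen and marrow contrasts of G over M sorts (7.71% of all genes). It stood at 418, 345 and 261 TPM in BALB/c G sorts, against 554, 502 and 669 TPM in BALB/c M sorts, with every G value below every M value, whereas every marrow G value lay above every marrow M value. The interaction was -1.52 ± 0.49 on the log2 scale (adjusted p = 0.0356), while neither contrast was called by itself (-0.77, adjusted p = 0.138, in BALB/c spleen and 0.75, 0.106, in marrow). The interaction call was lost with no filter (0.0624), after rescaling (-1.38, 0.0707) and without 9 of the 12 libraries in turn (adjusted p up to 0.0977). In a fit of these 4 groups alone S100a8 (1.83, adjusted p = 0.00224) and S100a9 (1.98, 0.00218) were called beside it, which neither was in the fit of all groups (0.272 and 0.242). The matching difference between APCmin/+ and BALB/c spleen was 1.25 (adjusted p = 0.26), with 1.74 without APCmin/+ G replicate 1 (0.0393) and 0.64 without APCmin/+ M replicate 1 (0.581).

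Across the 13 group means of log2(TPM + 1), which share libraries and TPM scaling, S100a8 and S100a9 had a Pearson r of 1.00. S100a11 followed S100a8 at 0.938, S100a10 ran against it at -0.883, S100a4 stood at 0.577 and S100a6 at 0.129. Among 9039 other genes with a group mean of at least 20 TPM, the profiles most like S100a8 were those of Wfdc21 (r = 0.994), Lcn2 (0.992), the neutrophil gelatinase-associated lipocalin, and Ngp (0.991), a secondary granule protein. Those most like S100a9 were Wfdc21 (0.992), Ngp (0.989) and Spidr (0.989). Closest to S100a4 were Ccr2 (0.991), the chemokine receptor of classical monocytes, Ms4a6c (0.962) and Rap1a (0.932). Closest to S100a11 were Padi4 (0.992), Dhrs7 (0.992) and Alox5 (0.987), the 5-lipoxygenase of leukotriene synthesis, and closest to S100a10 were Bag3 (0.974), Nostrin (0.969) and Me2 (0.968). S100a6 had no profile above r = 0.861, that of Pgap2, followed by Scnn1a (0.84) and Aacs (0.837). These correlations are descriptions over 13 means, given with no test.

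**Figure D4:**
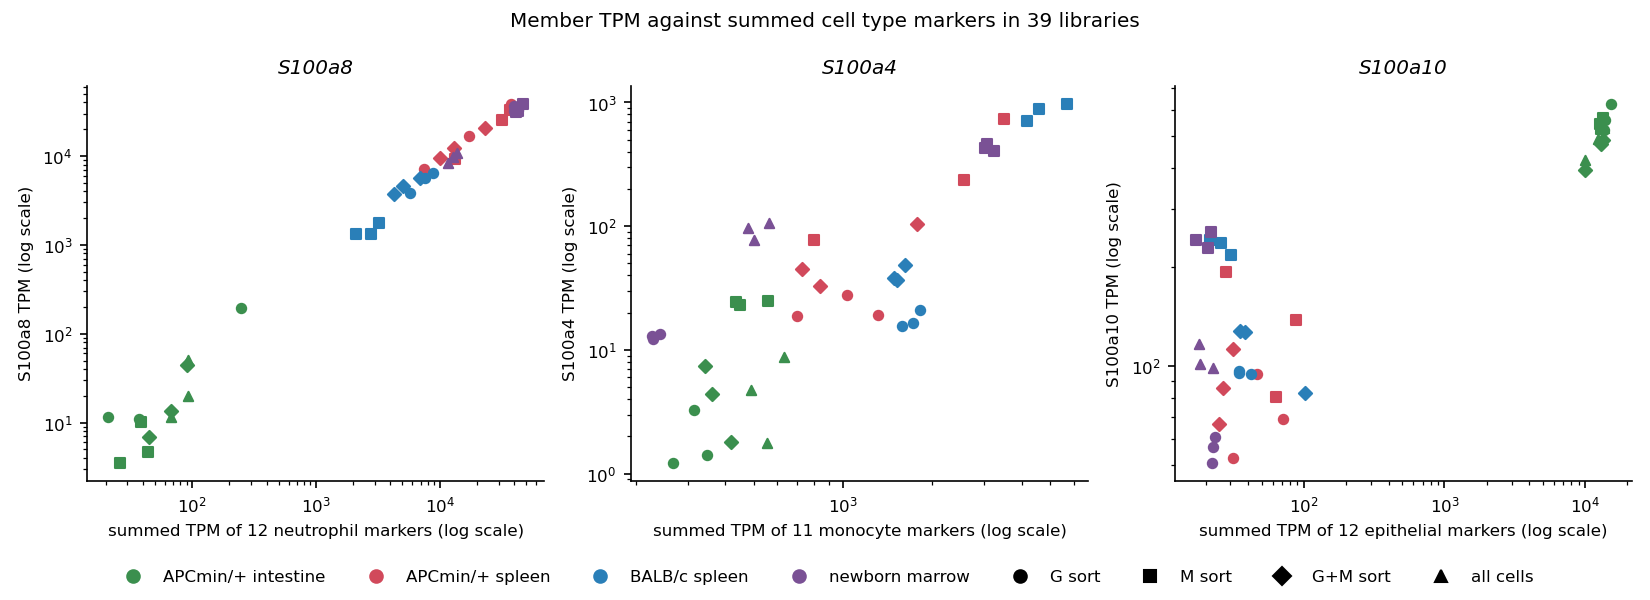
TPM of S100a8, S100a4 and S100a10 against the summed TPM of neutrophil, monocyte and epithelial markers in 39 libraries, all on log scales; colours give the site and shapes the sort. S100a8 climbs with the neutrophil sum from intestinal to spleen and marrow libraries, but not library by library within the intestine. S100a4 is highest where the monocyte sum is above 2500, but does not follow that sum across all groups. BALB/c G sorts have a higher monocyte sum than unsorted marrow and a lower mean S100a4 (17.8 against 93.9 TPM). S100a10 is highest in the intestinal libraries, where the epithelial sum is 10054 or more.

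Of 10 other S100 genes 8 passed the filter. S100g, the calbindin of calcium uptake in enterocytes, S100a14 and S100a16 were called higher in the intestine than in APCmin/+ spleen in all 3 sorts. S100g averaged 253 TPM in intestinal G sorts, against 0.253 TPM in spleen G sorts, a log2 fold change of 7.59 ± 0.34 (adjusted p = 1.78e-18). S100a14 averaged 38.5 TPM against 0.193 TPM and S100a16 53.2 TPM against 0.207 TPM in the same comparison. In all, 5 of the 8 were higher in intestinal than in spleen G sorts (40.8% of all genes called either way). In M sorts 3 were higher and 1 lower (39.9%), and in G+M sorts 5 were higher (39.3%). Between G and M sorts of marrow 2 were higher and 1 lower in G sorts (10.2% of all genes called either way). S100a1, which like S100a4 was lower in G sorts, averaged 7.48 TPM in G sorts and 34.1 TPM in M sorts (-2.05 ± 0.20, adjusted p = 2.74e-09). S100a7a averaged 3.95 TPM in G sorts and 0.683 TPM in M sorts (1.55 ± 0.16, 7.02e-09). In the intestine none of the 8 was called between G and M sorts in limma (2.83% of all genes), and none had an unadjusted p under 0.05.

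**Figure D5:**
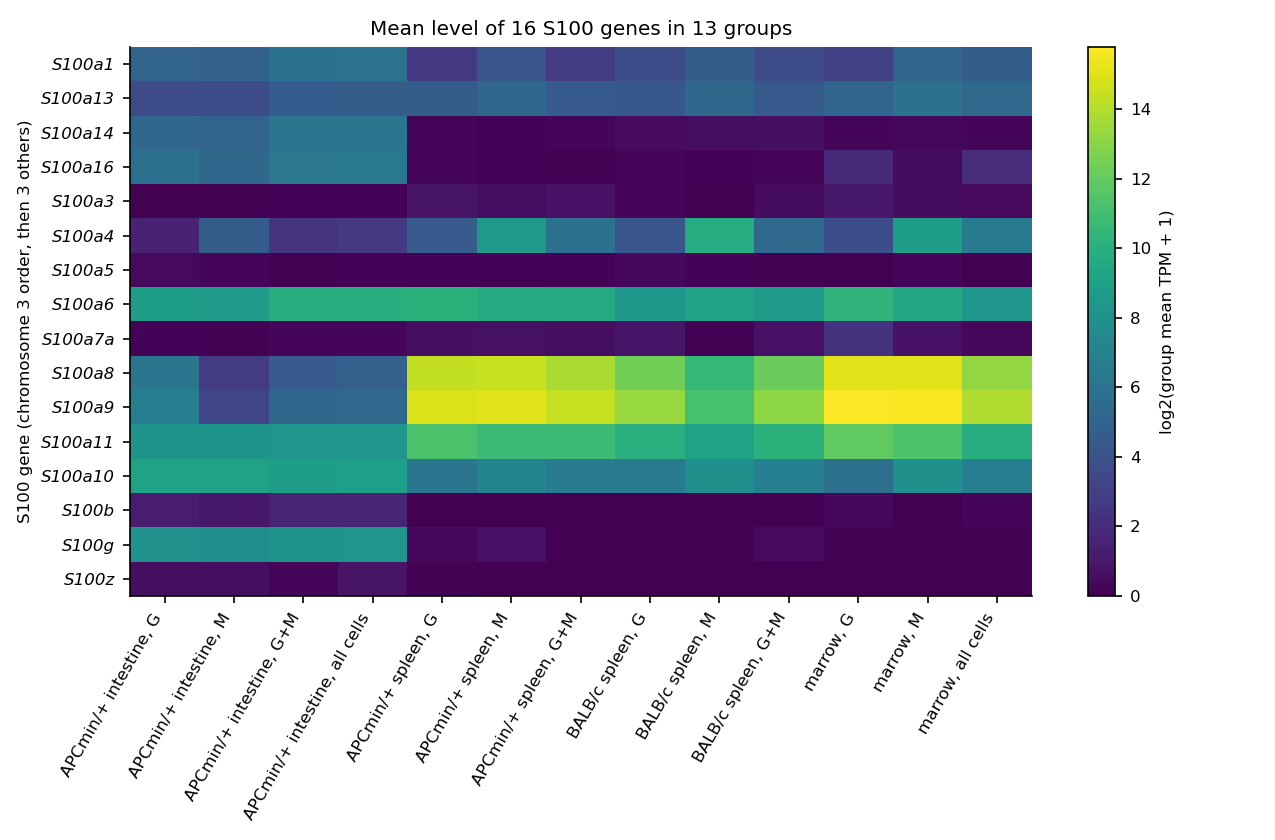
Group mean level, as log2(mean TPM + 1), of 16 S100 genes in 13 groups, in chromosome 3 order followed by S100b, S100g and S100z. S100a8 and S100a9 are brightest in marrow and spleen, and S100g, S100a14 and S100a16 are raised in the intestinal groups.

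Among 11 annexins and other S100 partners, 3 were lower in G than in M sorts of marrow (10.2% of all genes called either way). In BALB/c spleen 3 were lower (4.94%) and in APCmin/+ spleen 1 (3.22%). In the intestine limma called 0 (2.83%), where 1 had an unadjusted p under 0.05. None was called higher at any of the 4 sites. The call of Anxa4 in marrow, that of Anxa4 in BALB/c spleen and that of Anxa5 in APCmin/+ spleen each ended under 3 of 11 alternatives. Ahnak, a scaffold that binds the S100A10 and annexin A2 complex, averaged 5.59 TPM in marrow G sorts and 59.3 TPM in marrow M sorts (-3.19 ± 0.29, adjusted p = 6.24e-10), and 32.02 TPM in BALB/c G sorts and 175 TPM in BALB/c M sorts (-2.41 ± 0.29, 3.62e-07). Anxa2 itself averaged 575 TPM in marrow G sorts and 702 TPM in marrow M sorts and was not called between them. The ratio of S100a10 to Anxa2 TPM, which are per-length levels, was 0.0973 ± 0.00671 in marrow G sorts and 0.345 ± 0.0267 in marrow M sorts, with no overlap. It was 0.761 ± 0.0169 in intestinal G sorts and 0.794 ± 0.0621 in intestinal M sorts. Anxa1, the partner of S100A11, was lower in the intestine than in spleen in all 3 sorts, with 37.4 TPM in intestinal G sorts against 870 TPM in spleen G sorts (-4.29 ± 0.41, adjusted p = 1.35e-10). Anxa4 was higher there, at 576 TPM against 13.1 TPM (5.36 ± 0.22, 1.19e-19). Myh9, the heavy chain bound by S100A4, was lower at 122 TPM against 395 TPM (-1.67 ± 0.16, 1.22e-10). Against unsorted marrow 5 of the 11 were higher in G sorts (19.1% of all genes called) and 8 in M sorts (19.1%), Anxa2 among both. The call of Anxa3 in G sorts ended under 6 of 11 alternatives.

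Of 10 receptor and signalling genes of extracellular S100A8 and S100A9, 6 were lower and 1 higher in intestinal than in spleen G sorts (40.8% of all genes called). The call of Mcam, one of the 6, ended under 8 of 11 alternatives and that of Cd36 under 3. Tlr4 averaged 1.58 TPM in intestinal G sorts, against 41.3 TPM in spleen G sorts (-4.01 ± 0.23, adjusted p = 1.22e-15), and Myd88, its adaptor, 24.0 TPM against 136 TPM (-2.38 ± 0.22, 5.43e-11). Ager, which encodes RAGE, averaged 1.27 TPM against 12.9 TPM (-2.57 ± 0.20, 8.24e-13). Bsg, the S100A9 receptor basigin, was the gene that was higher, at 534 TPM against 126 TPM (2.08 ± 0.14, 2.58e-14). In M sorts 3 were lower and 1 higher (39.9% of all genes called), and in G+M sorts 5 were lower and 1 higher (39.3%). Between G and M sorts of marrow Cd36 and Mcam were higher and Alcam lower in G sorts (10.2% of all genes called). In BALB/c spleen (4.94%) and APCmin/+ spleen (3.22%) none was called in limma, with 4 of 10 at an unadjusted p under 0.05 in each. In the intestine only Cd14, the co-receptor of Tlr4, was called (2.83% of all genes). It was lower, at 7.96 TPM in G sorts against 22.9 TPM in M sorts (-1.43 ± 0.40, adjusted p = 0.0259), and that call ended under 5 of 11 alternatives.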

How the data were processed

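Polyadenylated RNA of 39 mouse samples was sequenced, in 13 groups of 3 libraries taken from the labels. Per the labels' protocols, libraries were made with a TruSeq stranded mRNA kit and read as 75 bp single reads on a NextSeq 500. Per the submitters' processing notes, bcl2fastq 2.18, STAR 2.6.1c and RSEM were used with mm10. The annotation and the version of RSEM were not given in the sources used here. In the deposited table each value is the TPM of a gene, a share of transcripts scaled to 1000000 per library, which keeps no read counts, so depth and counting error are unknown. Of 53465 identifiers 53274 were matched to gene names, and 26 symbols that had become dates were restored from their identifiers.

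The 18466 genes with 3 or more libraries at a TPM of 1 or more (of 35653 above 0) were analysed as log2(TPM + 1), on which the fold changes of low genes are understated. One mean per group was fitted over all 39 libraries with limma 3.58.1 in R 4.3.3, with a variance trend and two-sided moderated tests (26 residual degrees of freedom). Benjamini-Hochberg adjustment ran over all 18466 genes of each of 20 comparisons, and a call needed an adjusted p under 0.05 and a fold of at least 2. Interactions are differences of 2 contrasts in that fit. The fit was tested on simulated data, but the outcome is not given here and no result rests on it. Log2 fold changes of the 6 genes are printed where the adjusted p was under 0.3. Summaries and figures were made with pandas 2.3.3, numpy 2.4.6 and matplotlib 3.10.9 in Python 3.11.15.

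The genes named are the 6 members, lists of 10 other S100 genes, 11 annexins and partners and 10 receptor genes, 7 lists of cell type markers, and the 3 genes most correlated with each member. The members, lists and motifs were chosen with earlier results of these data known. The alternatives were a pseudocount of 0.1, no filter, libraries rescaled by their median ratio over 6908 genes, a fit of the groups compared only, the replicate number as a block, and each library left out in turn.

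Equally numbered libraries were taken as paired where their deviations from the group means correlated above 0.1 for every number. This held for G against M sorts in APCmin/+ spleen (r of 0.555, 0.375 and 0.404) and intestine (0.599, 0.432 and 0.562) and for G+M sorts against unsorted intestinal cells (0.643, 0.59 and 0.628). No label states the meaning of a replicate number, so this pairing is read from the values.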

Additional observations from a re-analysis of the deposited data

Results flagged for a closer look

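The difference between the BALB/c spleen and marrow contrasts of G over M sorts in S100a6 was flagged because the interaction term itself passed the threshold, at -1.52 on the log2 scale (SE 0.49, adjusted p = 0.0356). All 3 BALB/c G libraries lay below the 3 BALB/c M libraries, and all 3 marrow G libraries lay above the 3 marrow M libraries. The summed neutrophil markers averaged 7426 TPM in G sorts and 2705 TPM in M sorts of BALB/c spleen, and 40873 TPM in G sorts and 43857 TPM in M sorts of marrow, and their part in the difference was not tested. Strain, immune deficiency, tissue and age cannot be told apart between these contrasts.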

How the results depend on the processing

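The 44 calls of the 6 genes were recomputed under the alternatives, and 422 of the 490 values stayed called, 68 were no longer called and 0 changed direction. With no filter, the number of the 6 called was 3 between G sorts and unsorted marrow (5 as reported) and 0 in the interaction of BALB/c spleen and marrow (1). After rescaling it was 1 between APCmin/+ and BALB/c G+M sorts (0), 0 between intestinal G sorts and unsorted cells (1), 1 between intestinal M sorts and unsorted cells (3) and 0 in the interaction of BALB/c spleen and marrow (1). In fits of the groups compared alone it was 0 between G and M sorts of APCmin/+ spleen (1), 0 between APCmin/+ and BALB/c G sorts (2), 2 between their M sorts (4), 0 between intestinal G sorts and unsorted cells (1), 1 between intestinal M sorts and unsorted cells (3), and 3 in the interaction of BALB/c spleen and marrow (1). With the replicate block it was 3 between G and M sorts of the intestine (1) and 2 in the interaction of intestine and spleen (0), and the block changed no other of these counts by over 1.5 times. The pseudocount changed no count by that much. The cause of these changes was not tested.

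With 1 library left out, between 2 and 2 of the 6 were called between G and M sorts of marrow, 2 to 3 in BALB/c spleen, 1 to 3 in APCmin/+ spleen and 1 to 3 in the intestine. Between intestine and spleen 5 to 6 were called for G sorts, 5 to 6 for M sorts and 5 to 5 for G+M sorts. Between APCmin/+ and BALB/c spleen 2 to 3 were called for G sorts, 3 to 5 for M sorts and 0 to 1 for G+M sorts. Between APCmin/+ spleen and marrow 0 to 0 were called for G sorts and 0 to 2 for M sorts. Against unsorted marrow 3 to 3 were called for G sorts and 4 to 4 for M sorts, and against unsorted intestinal cells 0 to 1 for G sorts, 2 to 4 for M sorts and 0 to 0 for G+M sorts. The interactions gave 0 to 2 for intestine and spleen, 0 to 1 for BALB/c spleen and marrow, and 0 to 1 for both spleens.

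Rescaling moved the median log2 fold change of all genes by 0.43 between intestinal and spleen M sorts, 0.25 between intestinal M sorts and unsorted cells, -0.27 in the interaction of intestine and spleen, and by 0.16 or less in size elsewhere. The share of calls that were higher went to 60.7% after rescaling, against 35.7% as deposited, between intestinal and spleen M sorts, and to 45.5% against 18.0% between G and M sorts of APCmin/+ spleen. TPM keeps no depth, so the detection limit for a low intestinal level of S100a8 or S100a9 is unknown. Groups of 3 libraries limit the precision throughout.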
